A study of Mus musculus with 19 samples.

Results

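Wild type basal cells of the mouse anterior prostate were compared with wild type luminal cells, using 3 basal and 3 luminal libraries out of 19 in the series. The study sorted basal, luminal and stromal cells by flow cytometry from anterior prostates of wild type mice and of Lgr5-DTR-eGFP mice, in which diphtheria toxin kills cells that express the stem cell receptor gene Lgr5. The 6 libraries described here carry the genotype label wild type, and the labels name purchased C57BL/6 mice as the only unmodified inbred strain. The Lgr5-DTR-eGFP mice received the toxin, and the labels do not say whether the wild type mice also did, how old the mice were, which antibodies set the gates, or whether each library came from its own animal. RNA was amplified from small amounts of input with a template-switching kit and sequenced on a HiSeq instrument. The deposited values are FPKM, fragments scaled to transcript length and to the mapped reads of the library, listed per transcript and summed here per gene.

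A gene was a member when it reached 1 FPKM or more in at least 3 of the 6 libraries. Of 24343 genes in the tables, 10465 did so. Dclre1a lay just inside, at 1.001 FPKM in the lowest of its 3 highest libraries, and Zfp580 just outside, at 0.99986 FPKM. Estimates of failed or capped status removed 5 members, which left 10460 genes tested. Among those removed was Tgm4, a transglutaminase of prostatic fluid that is listed at 0 in all 3 luminal libraries because its estimate was capped there, and at 124 to 246 FPKM in the basal libraries.

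The prostatic epithelium is a bilayer. Basal cells sit on the basement membrane, hold to it through hemidesmosomes and carry keratins 5 and 14 and the transcription factor p63. Luminal cells face the duct, depend on androgen and secrete the proteins, citrate and zinc of prostatic fluid, which calls for a large endoplasmic reticulum where secreted proteins are folded. The layers also exchange growth factor and Notch signals that govern which cells divide and what they become.

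The marker sums of all 6 libraries matched their labels. Of 19 basal markers tested, 18 were higher in the basal libraries, and their summed level was 11659 to 15237 FPKM there against 310.1 to 844 FPKM in the luminal libraries. Of 15 luminal markers, 9 were higher in the luminal libraries, Foxa1 and Cdh1 were higher in the basal libraries, and 4 did not pass, Krt8, Krt18 and Epcam among them. Their summed level was 27379 to 30434 FPKM in luminal against 5791 to 6642 FPKM in basal libraries. Replicates correlated at r = 0.976 to 0.987 across genes in basal and 0.967 to 0.976 in luminal cells, and a basal and a luminal library at 0.665 to 0.751. Luminal replicate 1 stood nearest to the basal libraries (0.741 to 0.751, against 0.665 to 0.704 for the other luminal libraries) and held the most basal marker signal, 844 FPKM against 310.1 and 368 FPKM. The major luminal product Pbsn reached 116 to 173 FPKM in the basal libraries, 0.592% to 0.881% of the luminal mean, and averaged 176 FPKM in wild type stromal libraries. Krt14 in the luminal libraries came to 3.57%, 0.875% and 0.695% of the basal mean. Whether these low shares are other cells or free RNA was not tested.

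Markers of other cell types differed between the layers in both directions. Of 6 tested fibroblast markers, 4 collagens were higher in luminal cells and Dcn and Gsn higher in basal cells, and the 20 listed genes summed to 990.0 to 1223 FPKM in basal, 189.9 to 239 FPKM in luminal and 15771 to 19018 FPKM in wild type stromal libraries. Most of the basal sum came from the proteoglycan gene Dcn and from Gsn, which many cell types express. Col1a1, the main fibroblast collagen, was at 0.321 to 0.459 FPKM in basal and 3.23 to 5.45 FPKM in luminal libraries. All 5 tested erythrocyte genes were higher in luminal libraries, and the 8 in the tables summed to 164 to 1012 FPKM there against 0.222 to 33.5 FPKM in basal libraries. Of 13 tested Schwann cell markers, 9 were higher in luminal and 3 in basal libraries. The 15 listed summed to 94.2 to 136 FPKM in basal and 119 to 161 FPKM in luminal libraries, with overlap. Their mean log2(FPKM + 1) did not overlap, at 1.359 to 1.589 in basal and 2.670 to 3.097 in luminal libraries. Of the 13 tested, 7 were higher in luminal and 1 in basal libraries by more than 2-fold, with a median of -1.89 on the log2 scale. All 5 tested pericyte markers were higher in luminal libraries. The 9 listed summed to 17.9 to 33.2 FPKM there against 5.87 to 8.59 FPKM in basal libraries. Of 8 tested smooth muscle markers, 3 were higher in basal and 2 in luminal cells, with a median of 0.60 on the log2 scale. The 16 listed summed to 438 to 494 FPKM in basal against 42.7 to 68.4 FPKM in luminal libraries, mostly from the cytoskeletal gene Smtn (388 to 452 FPKM in basal), while the 2 luminal ones were Acta2 (-1.79) and Myh11 (-1.58). Under 1 FPKM in every basal library were 16 of the 20 fibroblast, 4 of the 8 erythrocyte, 8 of the 15 Schwann cell, 8 of the 9 pericyte and 9 of the 16 smooth muscle genes. A tested member of these could enter only through the luminal libraries, so that the expression rule fixed its direction. The part of other cell types in the results below was not tested.

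Of 10460 genes, 2952 (28.2%) were higher in basal and 4240 (40.5%) higher in luminal cells by limma at an adjusted p of 0.05, so that the layers differed at 68.8% of expressed genes. Values were compared as log2(FPKM + 1), and every difference is basal minus luminal, so that a positive value is higher in basal cells and the change of a low gene is understated. Counts for gene lists below are read against these percentages. Differences of more than 2-fold, tested against that size, were called for 913 genes (8.73%) in favour of basal and 1582 (15.1%) in favour of luminal cells. The 3 libraries of one layer lay wholly above those of the other for 3184 (30.4%) and 4439 (42.4%) genes, 7623 (72.9%) in all. The median gene differed by -0.20 on this scale, and the list medians given below are to be read against it. When libraries were rescaled by a trimmed mean or by quantiles, that median moved to -0.01 and 0.03, and the split of calls from 41.0% basal to 49.2% and 50.7%. Without luminal replicate 1, the counts were 3026 and 4110. Of the called genes, 371 basal and 730 luminal ones were under 1 FPKM in every library of the other layer and so could enter only through the layer where they were high. The labels do not name separate animals, so a p-value here speaks only to variation among libraries, possibly technical, and in bulk samples fewer cells of a type and less RNA per cell cannot be told apart.

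**Figure D1:**
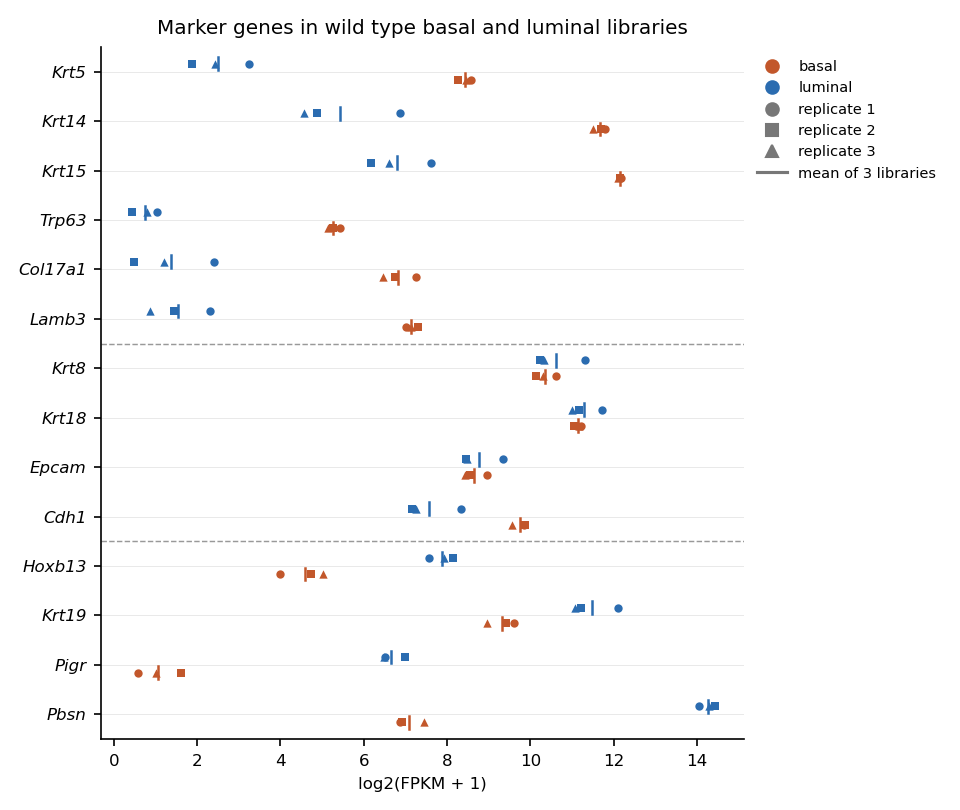
Marker genes in each wild type library, as log2(FPKM + 1): points are libraries, with the shape giving the replicate, and vertical ticks are means of 3 libraries. Basal keratins, Trp63 and hemidesmosome genes (top) and Hoxb13, Krt19, Pigr and Pbsn (bottom) separate completely. In the middle, Krt8, Krt18 and Epcam overlap between layers, while Cdh1 is higher in every basal library than in any luminal library.

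Basal keratins separated the layers by wide margins, while Krt8 and Krt18, commonly used to mark luminal cells, did not pass the test. Krt14 was at 3546, 3310.0 and 2882 FPKM in the basal libraries and at 116, 28.4 and 22.6 FPKM in the luminal libraries (limma, log2 difference 6.22 ± 0.63 SE, adjusted p = 0.000333). Krt5 was at 381, 307 and 352 FPKM in the basal libraries and at 8.42, 2.68 and 4.38 FPKM in the luminal libraries (log2 difference 5.92 ± 0.29 SE, adjusted p = 4.88e-08). Keratins 5 and 14 pair into the filaments that anchor basal cells, and every basal library lay far above every luminal library for both. Krt15 and Krt17 behaved alike, at 4370.2 to 4632 and 2352 to 4337 FPKM in basal against 70.7 to 196 and 24.2 to 147 FPKM in luminal cells. Luminal replicate 1 was the highest of its group for all 4 of these genes, and without it the difference of Krt14 was 6.94 and that of Krt17 6.64 in place of 5.87.

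The luminal keratin Krt8 was at 1559, 1125 and 1269 FPKM in basal and 2518, 1209.8 and 1281 FPKM in luminal libraries, with overlapping groups (-0.27, adjusted p = 0.381 by limma, and 0.07 without luminal replicate 1). Its partner Krt18 (adjusted p = 0.506) and the adhesion molecule Epcam (adjusted p = 0.681) did not pass either, and the signs of both changed with the scaling. By contrast Krt19 was higher in luminal cells at 4412, 2394 and 2151 FPKM against 775, 679 and 499 FPKM (log2 difference -2.14 ± 0.27 SE, adjusted p = 3.78e-05). Of 17 keratins tested, 9 were higher in basal cells, 3 higher in luminal cells and 5 did not pass, with a median difference of 2.18. Krt16 (5.19), Krt75 (4.09), Krt13 (3.91) and Krt7 (3.38) were also basal, of which Krt16 and Krt13 are known from stressed and stratified epithelia. The difference of Krt16 was 5.88 without luminal replicate 1 and 4.52 without luminal replicate 3. A further 11 listed keratins were under the expression rule.

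The transcription factor p63, which basal cells need to exist, and the junctions with the basement membrane followed the keratins. Trp63 was at 42.1, 37.1 and 34.3 FPKM in the basal libraries and at 1.07, 0.350 and 0.738 FPKM in the luminal libraries (log2 difference 4.51 ± 0.21 SE, adjusted p = 6.77e-09). The groups were far apart, and the highest luminal library was replicate 1. Of 28 tested hemidesmosome, laminin and integrin genes, 23 were higher in basal and 3 in luminal cells (median 2.20), and 18 passed the 2-fold test in favour of basal cells and none in favour of luminal cells. The laminin subunits Lamb3 (5.60) and Lama3 (3.19), which belong to a ligand of hemidesmosomes, were higher in basal cells. So were the receptor subunit Itgb4 (3.69) and collagen XVII, Col17a1, which was at 152, 107 and 86.5 FPKM in basal and 4.28, 0.409 and 1.32 FPKM in luminal libraries. Further integrin subunits were basal as well (Itgb6 (4.65), Itga2 (3.73) and Itga3 (3.71)). Nid1 (0.26, adjusted p = 0.242), which belongs to other basement membranes too, did not pass. Without luminal replicate 1 the difference of Itgb6 was 5.24.

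Matrix genes were mixed. Of 30 collagen and matrix genes tested, 14 were higher in basal and 12 in luminal cells (median 0.26). Decorin, a small proteoglycan usually taken as a fibroblast product, was basal: Dcn was at 729.6, 844 and 879.8 FPKM in basal and 34.6, 11.9 and 15 FPKM in luminal libraries (log2 difference 5.39 ± 0.33 SE, adjusted p = 6.16e-07), while the fibroblast collagen Col1a1 stood at 0.321 to 0.459 FPKM in the same basal libraries. Fibromodulin, a related proteoglycan, showed the same order, with Fmod at 199, 278 and 259 against 7.98, 2.21 and 5.51 FPKM. Col18a1 (3.55), Col7a1 (2.59) and Thbs1 (3.37) were higher in basal cells, and collagen VII is the anchoring fibril of stratified epithelia. Postn (-4.13), Col3a1 (-2.80), Col1a2 (-1.997) and Col1a1 (-1.93) were higher in luminal libraries, with Postn at 18.4 to 23.1 FPKM. Col1a1, under 1 FPKM in every basal library, could enter the test only through the luminal libraries, which fixed its direction. Whether other cell types contributed was not tested.

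Secretory products were among the most abundant genes of the luminal libraries. Probasin, an androgen-driven lipocalin, was their most abundant gene: Pbsn was at 116, 120.1 and 173 FPKM in the basal libraries and at 16876, 22090.4 and 19870.2 FPKM in the luminal libraries (log2 difference -7.17 ± 0.19 SE, adjusted p = 2.05e-10). Renin-1 followed at 4336, 10279 and 4616 FPKM against 24.4, 105 and 57.1 FPKM. Reads may have been split between Ren1 and the near-identical annotation entry Ren2, so that the values of each are uncertain. For Pbsn and Ren1 every luminal library lay far above every basal library.

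Of 51 prostate secretory proteins listed, 49 are in the tables and 18 passed the expression rule. Among these 18, 12 were higher in luminal cells, 10 of them by more than 2-fold, 3 were higher in basal cells and 3 did not pass (median -2.67). The luminal group held the pancreatic lipase relative Pnliprp1 (-6.83), the zinc-binding glycoprotein Azgp1 (-6.36), the channel regulator Tcaf3 (-6.33), the pore-forming protein Gsdma (-6.18) and beta-microseminoprotein, Msmb (-5.99). Msmb was at 144, 86.4 and 84.6 FPKM in luminal and 0.138, 0.581 and 1.33 FPKM in basal libraries. The 3 basal members were the crosslinking enzyme Tgm2 (4.21), the protease inhibitor relative Wfdc2 (2.14) and the acid phosphatase Acpp, which was at 1.16, 2.33 and 2.13 FPKM in basal libraries, is listed at 0 in all 3 luminal libraries and was chosen after its values were seen.

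Several other genes with very large luminal differences also encode secreted proteins or enzymes, among them the ribonuclease Rnase1 (-6.67), the hepatokine Fgl1 (-6.64), the antioxidant enzyme Gpx3 (-6.32) and matrilysin, Mmp7 (-6.56), a metalloproteinase of secretory epithelia. Mmp7 was at 18.0, 21.7 and 28.5 FPKM in the basal libraries and at 1962, 2825 and 1940.5 FPKM in the luminal libraries. Gpx3 was at 1384 to 3096 FPKM in luminal and 19.7 to 29.9 FPKM in basal cells. The peroxiredoxin Prdx6, another antioxidant, was among the 10 most abundant luminal genes, at 5012, 6448 and 4808 FPKM against 134, 176 and 168 FPKM (log2 difference -5.08 ± 0.18 SE, adjusted p = 9.91e-10). Neither gene's groups came close to overlapping.

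The machinery that folds and exports such proteins was higher in luminal cells almost throughout. Of 59 tested endoplasmic reticulum and secretory pathway genes, 55 were higher in luminal cells, 39 of them by more than 2-fold, none was higher in basal cells, also at an unadjusted p of 0.05 by limma, and 4 did not pass. The median difference was -2.13, against -0.20 for all genes, and -1.90 and -2.09 under the other scalings. The disulfide isomerase relative Agr2, which is needed for mucin folding, differed most: Agr2 was at 14.1, 16.6 and 18.0 FPKM in the basal libraries and at 1425, 1945 and 1416 FPKM in the luminal libraries (log2 difference -6.52 ± 0.18 SE, adjusted p = 2.05e-10). Sdf2l1, a partner of the main chaperone, was at 551, 739.6 and 578 FPKM in luminal and 6.11, 10.4 and 12.7 FPKM in basal libraries. That chaperone itself, BiP, was abundant everywhere and differed less: Hspa5 was at 1115, 1192 and 1174 FPKM in the basal libraries and at 3771, 2984 and 2866 FPKM in the luminal libraries (log2 difference -1.46 ± 0.17 SE, adjusted p = 8.51e-06). For all 3 genes the groups did not overlap.

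**Figure D2:**
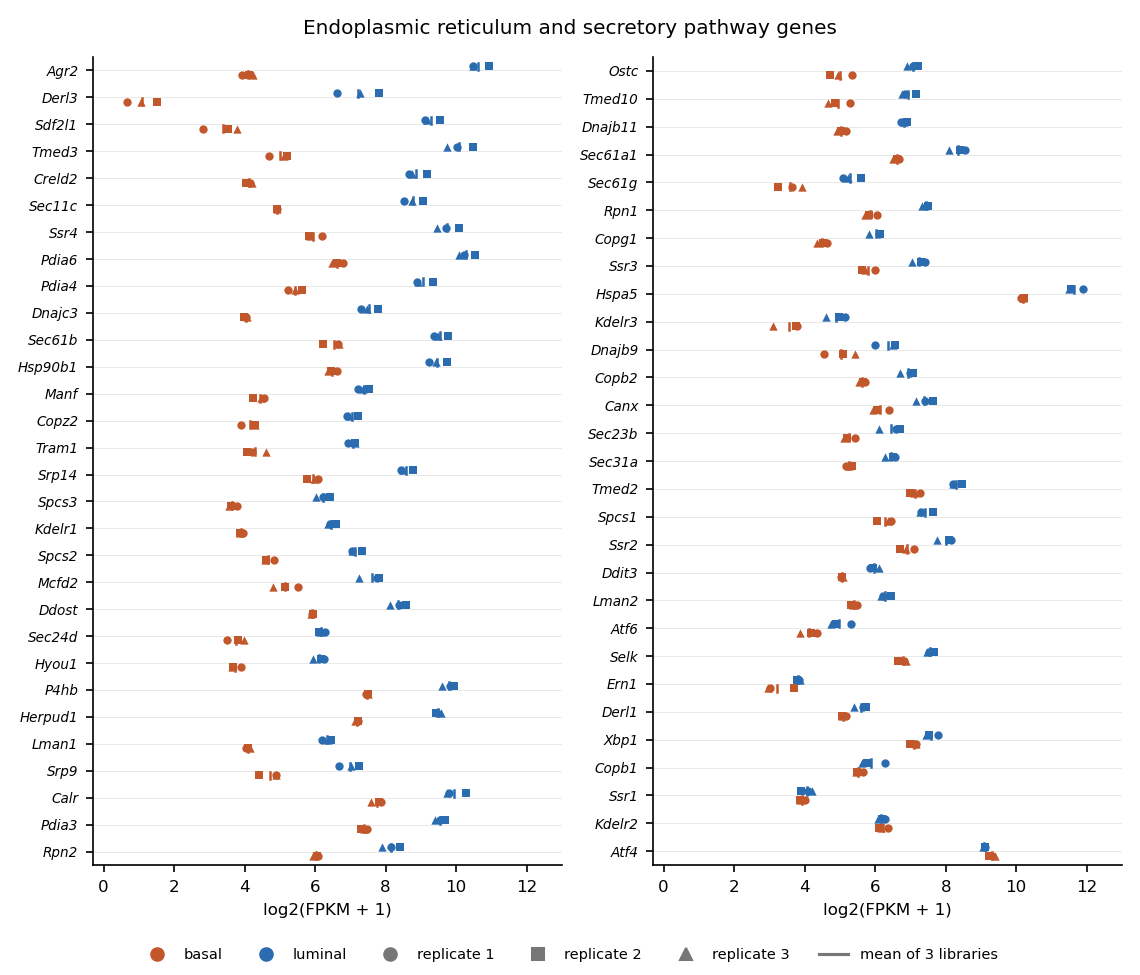
The 59 tested endoplasmic reticulum and secretory pathway genes in each wild type library, as log2(FPKM + 1), ordered from the largest to the smallest luminal excess, with points for libraries and ticks for means of 3 libraries. Luminal points lie to the right of basal points for nearly every gene, from Agr2 at a log2 difference of -6.52 to Atf4 at 0.21.

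By role, the differences ran through the whole pathway. Entry into the endoplasmic reticulum was represented by the translocon-associated Ssr4 (-3.79) and the signal peptidase subunit Sec11c (-3.87), folding by the disulfide isomerase Pdia6 (-3.65) and the stress-induced Creld2 (-4.74), degradation of misfolded proteins by Derl3 (-6.14), and exit by the cargo receptor Tmed3 (-5.06). Derl3 was at 97.7, 222 and 153 FPKM in luminal and 0.594, 1.88 and 1.09 FPKM in basal libraries. Smaller differences occurred among regulators. The stress regulator Xbp1 was at 173 to 218 FPKM in luminal and 125 to 143 FPKM in basal libraries (log2 difference -0.48 ± 0.16 SE, adjusted p = 0.0201), a gene chosen after its values were seen, and was not called under the trimmed mean scaling (-0.25, adjusted p = 0.148), without luminal replicate 1 (adjusted p = 0.0643) or without basal replicate 2 (adjusted p = 0.084). Atf4 (adjusted p = 0.231) and Copb1 (adjusted p = 0.112) did not pass.

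The unfolded protein response acts in part through the ER stress response element, a promoter sequence read as CCAAT and CCACG with 9 bases of any kind between them, which is bound when misfolded proteins build up. In the 250 bases before each RefSeq start, on both strands, this sequence occurred in 35 of 27025 genes (0.13%) and in 37 of 32851 promoters (0.113%). Of the 10460 tested genes, 7991 matched a promoter in the RefSeq table by symbol, and 14 of these held the sequence: 12 of 3251 genes higher in luminal cells (0.369%), none of 2241 higher in basal cells and 2 that did not pass. Within the secretory list it was found in 8 of 45 genes (17.8%), and all 8 were higher in luminal cells. These 8 are shown because they are the members of the secretory list with the sequence. The rest of the 12 luminal genes that hold it are outside this list and are not shown. The list holds known stress-response genes, so it is no independent sample of promoters, and a match is a description of letters and not of binding. The unfolded protein response element TGACGTGG, which shares the letters CGTGG with it, was in 3 of the 45 genes (6.67%) and in 76 of the 7991 (0.951%).

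These windows are from RefSeq on GRCm38.p6, 79 bases each, 5' to 3' on the strand of the gene. Capitals mark the element, which reads CGTGG, 9 bases, ATTGG where it lies on the opposite strand, as in Calr, Creld2 and Derl3.
Hspa5 (chr2:34771995-34772073, plus strand): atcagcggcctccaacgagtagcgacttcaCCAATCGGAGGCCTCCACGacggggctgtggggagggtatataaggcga
Hsp90b1 (chr10:86705608-86705686, minus strand): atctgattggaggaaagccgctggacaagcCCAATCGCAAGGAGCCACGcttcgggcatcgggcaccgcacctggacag
Calr (chr8:84847045-84847123, minus strand): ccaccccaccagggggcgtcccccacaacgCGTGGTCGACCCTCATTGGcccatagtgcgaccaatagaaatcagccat
Canx (chr11:50325770-50325848, minus strand): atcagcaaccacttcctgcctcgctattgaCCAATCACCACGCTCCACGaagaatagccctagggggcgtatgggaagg
Pdia6 (chr12:17266461-17266539, plus strand): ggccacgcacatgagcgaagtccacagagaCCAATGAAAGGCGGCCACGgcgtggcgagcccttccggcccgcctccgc
Dnajc3 (chr14:118937797-118937875, plus strand): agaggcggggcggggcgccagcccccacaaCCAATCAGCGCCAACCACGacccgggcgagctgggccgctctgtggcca
Creld2 (chr15:88819490-88819568, plus strand): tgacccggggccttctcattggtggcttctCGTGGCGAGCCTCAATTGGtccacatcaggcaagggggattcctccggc
Derl3 (chr10:75893212-75893290, plus strand): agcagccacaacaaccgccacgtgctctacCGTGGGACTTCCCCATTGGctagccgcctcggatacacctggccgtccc

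Their log2 differences were Hspa5 (-1.46), Hsp90b1 (-2.97), Calr (-2.18), Canx (-1.27), Pdia6 (-3.65), Dnajc3 (-3.49), Creld2 (-4.74) and Derl3 (-6.14), of which Hsp90b1, Calr, Canx and Dnajc3 were named because of the match. Hsp90b1 encodes the endoplasmic form of HSP90, Calr and Canx the lectin chaperones calreticulin and calnexin, and Dnajc3 a co-chaperone. Hsp90b1 held 2 matches, of which the one farther from the start is shown. Canx, at 168, 199 and 141 FPKM in luminal and 83.5, 65.2 and 60.1 FPKM in basal libraries, differed least of the 8, and its groups did not overlap.

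Beyond the endoplasmic reticulum the secretory route was mixed. Of 34 Golgi glycosylation enzymes tested, 16 were higher in luminal and 12 in basal cells, and the median was -0.21, near that of all genes, and changed sign with the scaling. Fucosyltransferases and a mannosidase were luminal (Fut2 (-3.86), Man1a (-3.13) and Fut8 (-3.04)), while the sialyltransferases St3gal4 and St3gal1 were basal (3.14 and 2.89). Of 16 mucin and apical membrane genes tested, 12 were higher in luminal and 2 in basal cells (median -1.12). They included prominin, Prom1 (-4.59), the peptidase Dpp4 (-3.70) and the secretory granule GTPase Rab3d (-3.58). Prom1 was at 82.3, 88.4 and 67.0 FPKM in luminal and 2.01, 1.85 and 3.22 FPKM in basal libraries. The basal-side exception with the largest difference was the tetraspanin Cd9 (2.48).

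Lineage transcription factors split by layer. Hoxb13 was at 14.98, 25.6 and 31.5 FPKM in the basal libraries and at 188, 280.2 and 242 FPKM in the luminal libraries (log2 difference -3.29 ± 0.25 SE, adjusted p = 5.96e-07). Hoxb13 is a homeobox factor of the prostate, and every luminal library lay above every basal library. Of 28 luminal lineage factors tested, 16 were higher in luminal and 7 in basal cells (median -0.85). Bhlha15, also known as Mist1, which builds the secretory apparatus of exocrine cells, was at 33.5, 55.0 and 44.6 FPKM in luminal and 0.746, 0.704 and 0.791 FPKM in basal libraries (log2 difference -4.67 ± 0.21 SE, adjusted p = 5.08e-09). Being under 1 FPKM in every basal library, Bhlha15 could enter the test only through the luminal libraries. Gata2 (-4.54), Spdef (-3.99), Ehf (-2.93) and Creb3l1 (-2.10) were luminal as well, and Creb3l1 acts on secretory pathway genes. The pioneer factor Foxa1, usually taken as luminal, was higher in basal cells, at 153, 203 and 220.2 FPKM against 87.9, 75.5 and 77.6 FPKM, and was chosen after its values were seen.

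Basal lineage and mesenchymal factors were higher in basal cells for 16 of 20 tested, with 1 higher in luminal cells (median 1.43). Snai2, or Slug, a repressor of epithelial junction genes, was at 36.3, 56.8 and 58.9 FPKM in basal and 1.88, 1.42 and 0.531 FPKM in luminal libraries (log2 difference 4.52 ± 0.26 SE, adjusted p = 4.93e-08). Runx1, Twist2, Tfap2c and Myc followed at 2.60, 2.42, 2.29 and 2.10. The 1 luminal member was the T-box factor Tbx3 (-0.82), also chosen after its values were seen. Runx1 stood at 30.8 to 34.3 FPKM in basal and 4.15 to 4.84 FPKM in luminal libraries, without overlap.

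Genes usually listed as androgen-responsive did not move together. Of 26 tested, 13 were higher in luminal and 11 in basal cells, with a median of -0.50. Besides Pbsn, the membrane protease Tmprss2 (-3.12) and the methyltransferase Gnmt (-3.13) were luminal. The stress-responsive Ndrg1 (4.30), the metalloreductase Steap4 (3.18) and Pmepa1 (2.74), an antagonist of TGF-beta signalling, were basal. Tmprss2 was at 125, 146 and 105 FPKM in luminal and 15.5, 13.7 and 11.5 FPKM in basal libraries, and Ndrg1 at 16.5, 9.47 and 15.5 FPKM and 301, 291 and 264 FPKM. The groups of each gene were apart, in opposite directions.

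The EGF family was divided between the layers, with most ligands and the receptor Egfr in basal cells and Egf itself in luminal cells. Ligands of this family bind ERBB receptors and start the ERK cascade. Of 15 members tested, 11 were higher in basal, 3 in luminal cells and 1 did not pass, with a median of 2.64. Every tested member is given here, including 5 that the naming rule would have left out (Areg, Ereg, Nrg2, Lrig3 and Btc).

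Among ligands, heparin-binding EGF-like growth factor was the most abundant: Hbegf was at 591, 724 and 832 FPKM in the basal libraries and at 69.2, 51.1 and 67.5 FPKM in the luminal libraries (log2 difference 3.49 ± 0.19 SE, adjusted p = 2.14e-08). Tgfa, at 70.4, 71.2 and 60.2 FPKM in basal and 9.14, 4.61 and 3.30 FPKM in luminal libraries, and Epgn (3.12), Nrg1 (2.89), Nrg2 (2.64), Areg (2.28) and Ereg (2.24) were basal too. Egf ran the other way: it was at 144, 169 and 114 FPKM in luminal and 0.725, 1.68 and 1.47 FPKM in basal libraries (log2 difference -5.97 ± 0.22 SE, adjusted p = 1.1e-09). Betacellulin was luminal at lower levels, with Btc at 3.24 to 9.31 FPKM against 0.449 to 0.924 FPKM (-1.93). No ligand's basal and luminal libraries overlapped. For a ligand under 1 FPKM in every library of a layer, such as Btc in basal cells, the expression rule fixed this.

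Among receptors, Egfr was at 87.7, 78.3 and 61.2 FPKM in the basal libraries and at 18.5, 4.47 and 5.30 FPKM in the luminal libraries (log2 difference 3.12 ± 0.47 SE, adjusted p = 0.000816). Luminal replicate 1 was the highest luminal library for Egfr but stayed below every basal library. Erbb3, which signals only with a partner, was luminal, at 15.4, 7.39 and 10.004 FPKM against 1.18, 2.59 and 1.40 FPKM (-2.11). Erbb2, that partner, was at 6.43, 5.81 and 7.03 FPKM in basal and 9.35, 5.38 and 9.10 FPKM in luminal libraries, a difference that did not pass (-0.24, adjusted p = 0.355) and that changed sign with the scaling. The receptor inhibitors were basal: Lrig1 (3.09), Errfi1 (2.92) and Lrig3 (1.32).

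**Figure D3:**
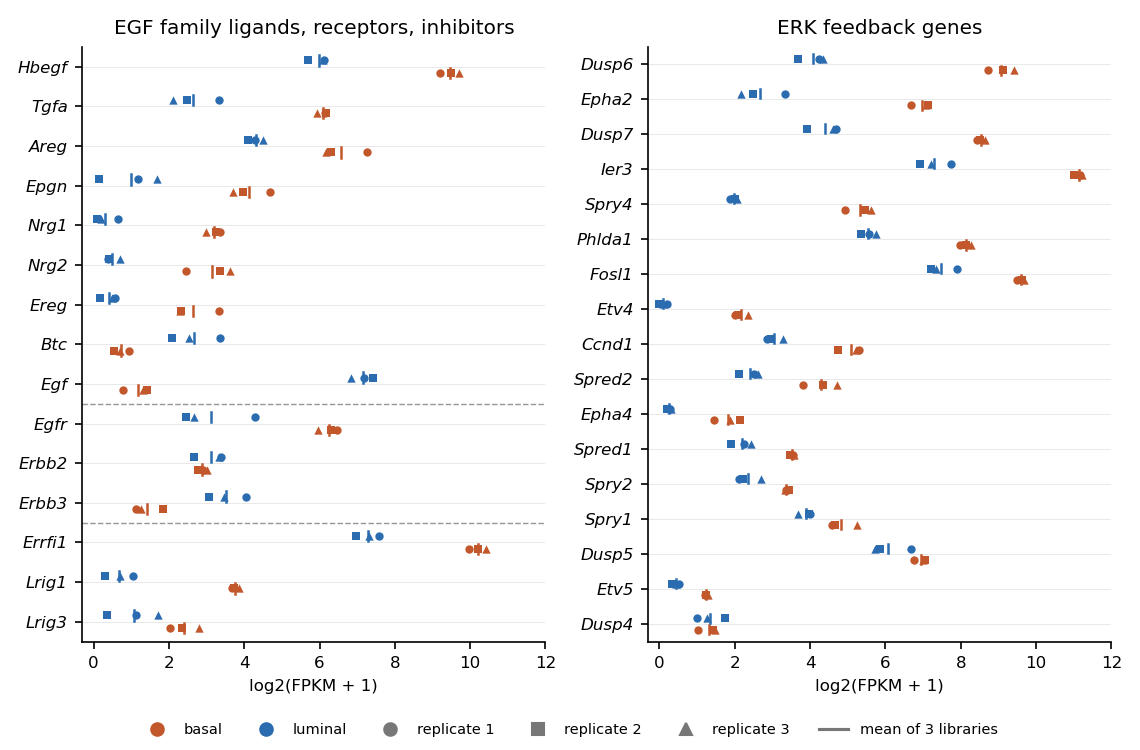
EGF family members (left, with dashed lines between ligands, receptors and inhibitors) and ERK feedback genes (right) in each wild type library, as log2(FPKM + 1), with points for libraries and ticks for means of 3 libraries. Basal points lie to the right for most genes, with Egf, Btc and Erbb3 reversed and Erbb2 and Dusp4 overlapping.

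Genes that ERK signalling induces, many of which feed back to limit it, were higher in basal cells for 16 of 17 tested, with none higher in luminal cells, also at an unadjusted p of 0.05 by limma, and a median of 2.05. Dual-specificity phosphatase 6, which inactivates ERK itself, differed most: Dusp6 was at 419.8, 553 and 684 FPKM in the basal libraries and at 18.0, 11.9 and 19.1 FPKM in the luminal libraries (log2 difference 4.99 ± 0.22 SE, adjusted p = 4.98e-09). Dusp7 was at 348, 366 and 401 FPKM in basal and 24.6, 14 and 23.4 FPKM in luminal libraries, and the receptor tyrosine kinase Epha2 at 102, 138 and 134 and 9.07, 4.64 and 3.45 FPKM. In all 3 genes the layers were far apart. Ier3 (3.84), Spry4 (3.36), Phlda1 (2.58), Fosl1 (2.12), Etv4 (2.06) and Ccnd1 (2.05) followed, Spry4 being an inhibitor of the cascade and Fosl1 and Etv4 transcription factors below it. Dusp4 did not pass (-0.02, adjusted p = 0.935), with a sign that changed with the scaling.

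Immediate early genes, which both stress and growth factors induce and which rise during tissue dissociation, were basal for 15 of 22 tested and luminal for 2 (median 1.24). Ier5 (2.69), Junb (2.42) and Fosl2 (2.29) were among the basal ones, while Fos was at 109, 194 and 245 FPKM in basal and 141, 205 and 299.7 FPKM in luminal libraries and did not pass (adjusted p = 0.543). Klf2, a quiescence-linked factor that stromal libraries held at a mean of 44.3 FPKM, was luminal (-2.01). The AP-1 element, TGANTCA, read by Fos and Jun factors, was present within 250 bases before the start of 61 of 676 genes more than 2-fold higher in basal cells (9.02%), 66 of 1189 more than 2-fold higher in luminal cells (5.55%) and 441 of 7991 tested genes (5.52%). Further sequences, the TEAD element GGAATG and the androgen response element (AGAACA and TGTTC with 3 bases between), were in 103 (15.2%) and 0 of those 676 basal genes, in 168 (14.1%) and 1 of those 1189 luminal genes and in 1002 (12.5%) and 1 of the 7991. Over all 27025 genes with a promoter, tested or not, the AP-1 element was in 2113 (7.82%), the TEAD element in 3880 (14.4%) and the androgen response element in 9 (0.0333%). None of 13 ERK feedback genes with a promoter in the table held the AP-1 letters, which says only that these letters are not in that window.

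Notch signalling is carried by ligands on one cell and receptors on its neighbour, and both ligands and a receptor were basal. Delta-like 1 showed the largest difference of the pathway: Dll1 was at 107, 93.3 and 68.4 FPKM in the basal libraries and at 2.37, 1.30 and 0.424 FPKM in the luminal libraries (log2 difference 5.32 ± 0.29 SE, adjusted p = 7.28e-08). Jag1 was at 80.7, 69.8 and 66.3 FPKM in basal and 4.27, 2.72 and 3.57 FPKM in luminal libraries, and Jag2 at 34.6, 45.0 and 54.2 and 1.31, 0.306 and 1.68 FPKM. All 3 ligands had groups that did not overlap. The receptor Notch2 was basal (2.71), and Notch1 did not pass (0.55, adjusted p = 0.053), although it passed in 8 of 16 alternatives, including those without basal replicate 1 (0.69, adjusted p = 0.031) and without luminal replicate 3 (0.78, adjusted p = 0.0114). Target genes split: Hes1 was higher in basal (1.64), and Hey1 (-1.80) and Hes6 (-3.17), a factor that can oppose Hes1, in luminal cells. Of 19 tested Notch genes, 13 were basal and 4 luminal (median 0.96).

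For the FGF, IGF, HGF and PDGF families, 15 of 25 tested genes were higher in basal and 4 in luminal cells (median 1.26). Fgfr2, the epithelial FGF receptor, was at 45.7, 63.8 and 81.1 FPKM in basal and 3.00, 1.85 and 2.68 FPKM in luminal libraries (log2 difference 4.18 ± 0.23 SE, adjusted p = 2.54e-08). The FGF-releasing protein Fgfbp1 (2.91) and the insulin-like growth factor binding proteins Igfbp2 (4.30) and Igfbp5 (2.16) were basal as well. Vegfb was luminal (-2.52). Stromal ligands of Fgfr2 such as Fgf7 and Fgf10 were under the expression rule in both layers.

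TGF-beta and BMP pathway genes were basal for 24 of 38 tested and luminal for 5 (median 0.83). The activin subunit Inhba was at 216, 180.1 and 111 FPKM in basal and 13.7, 5.10 and 4.88 FPKM in luminal libraries, its antagonist follistatin followed (Fst, 3.45), and so did the ligand Tgfb1 (3.05), the latent TGF-beta binding protein Ltbp4 (3.91) and the receptor Tgfbr2 (2.24). The BMP receptor Bmpr1b was luminal (-2.09). Sonic hedgehog, Shh, the epithelial signal to prostate stroma, was basal at 19.9, 21.4 and 24.5 FPKM against 1.04, 0.0147 and 0.0665 FPKM (log2 difference 4.13 ± 0.27 SE, adjusted p = 8.61e-08), with Smo (2.47) and Gli3 (2.05), 3 of 6 tested Hedgehog genes, with none luminal, also at an unadjusted p of 0.05 by limma.

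Wnt pathway genes were basal for 19 of 33 tested and luminal for 8 (median 0.70). The ligand Wnt11 (3.48), the Wnt receptor Ror2 (3.01) and the Wnt deacylase Notum (2.51) were basal. The luminal genes included Dkkl1 (-3.63), Nkd1 (-3.40), Nkd2 (-2.0) and Sfrp1 (-2.04), of which Nkd1, Nkd2 and Sfrp1 are known as inhibitors of the pathway, as is the basal Notum. Sfrp5 was luminal too, listed at 0 in all 3 basal libraries and at 2.57, 6.01 and 4.81 FPKM in luminal libraries. Nkd1 was at 17.9, 28.3 and 26.5 FPKM in luminal and 1.28, 1.69 and 1.11 FPKM in basal libraries, without overlap. Lgr5, the gene targeted in the other genotype, was at 0.659, 0.824 and 0.857 FPKM in basal, 1.99, 1.54 and 1.92 FPKM in luminal and a mean of 44.2 FPKM in wild type stromal libraries (log2 difference -0.66 ± 0.19 SE, adjusted p = 0.00824 between basal and luminal). Lgr5 and Sfrp5 were under 1 FPKM in every basal library. Both could enter the test only through the luminal libraries, which fixed their direction. Under quantile scaling Lgr5 was not called (-0.37, adjusted p = 0.0801), nor with all 6 cell groups in the fit (adjusted p = 0.0594).

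YAP and TAZ, mechanically regulated co-activators, act through TEAD factors. Of 29 of their targets and partners tested, 23 were higher in basal and 3 in luminal cells (median 1.49). Tissue factor was the largest: F3 was at 2185, 1863 and 1479.9 FPKM in the basal libraries and at 193, 60.2 and 68.1 FPKM in the luminal libraries (log2 difference 4.28 ± 0.43 SE, adjusted p = 7.63e-05). Ajuba (4.18), Fjx1 (3.94), Cyr61 (3.61) and Axl (3.37) were basal as well, and Cyr61 was at 2456 to 3077 FPKM in basal and 159.9 to 309 FPKM in luminal libraries. The TEAD factors differed in which layer held them: Tead2 was luminal, at 13.5, 16.4 and 17.1 FPKM against 0.466, 0.155 and 0.234 FPKM, while Tead4 (2.18), Tead1 (2.000) and Tead3 (0.91), chosen after their values were seen to complete the family, were basal. The groups did not overlap for any of the 4. For Tead2, under 1 FPKM in every basal library, the expression rule fixed this. The Tead4 call was lost without basal replicate 1 (1.86, adjusted p = 0.0663), basal replicate 2 (2.17, adjusted p = 0.0527) or luminal replicate 2 (1.97, adjusted p = 0.0587).

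Contractile and actin cytoskeleton genes were basal for 22 of 30 tested and luminal for 7 (median 1.58). Smoothelin, Smtn, was at 388, 452 and 449 FPKM in basal and 23.5, 8.79 and 21.9 FPKM in luminal libraries (log2 difference 4.61 ± 0.31 SE, adjusted p = 8.61e-07), and the tropomyosins, calponin and filamin Tpm2, Tpm1, Cnn2 and Flna differed by 4.36, 3.36, 3.74 and 3.49. Beta-actin, Actb, was the most abundant basal gene at 12901, 10514 and 9374 FPKM against 3269, 1715 and 1526 FPKM. The mesenchymal filament Vim and smooth muscle Acta2 ran the other way (-2.81 and -1.79), and the part of other cell types in this was not tested. Smooth muscle Tagln, at 34.4, 28.6 and 23.4 FPKM in basal libraries, listed at 0 in luminal replicate 1 and at 13.97 and 10.7 FPKM in luminal replicates 2 and 3, did not pass (adjusted p = 0.142), but did without luminal replicate 1 (1.15, adjusted p = 0.000532).

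Claudins and cadherins were divided between the layers. Claudin-1 was basal: Cldn1 was at 360.3, 279.8 and 288 FPKM in the basal libraries and at 11.5, 1.59 and 2.92 FPKM in the luminal libraries (log2 difference 5.94 ± 0.58 SE, adjusted p = 0.000198, and 6.60 without luminal replicate 1). Claudin-8, Cldn8, was luminal, at 84.1, 118 and 88.7 FPKM against 1.09, 2.62 and 2.84 FPKM, and so was Cldn3 at 500.2, 291 and 267 FPKM against 25.8, 20.8 and 26.2 FPKM. Cldn4, which was among the 10 most abundant basal genes, was higher in basal cells by 1.26 (not called with all 6 cell groups in the fit, adjusted p = 0.12), while Cldn7 (adjusted p = 0.171) did not pass. Of 23 tight junction genes, 8 were basal and 11 luminal (median -0.38). Of 21 desmosome and adherens junction genes, 15 were basal and 5 luminal (median 1.30). P-cadherin, Cdh3, was basal (4.58), and so was E-cadherin, Cdh1, at 919, 933 and 749 FPKM against 320.1, 141 and 151 FPKM (log2 difference 2.18 ± 0.28 SE, adjusted p = 5.29e-05). Plakophilins took opposite sides, with Pkp1 basal (4.09) and Pkp2 luminal (-2.88).

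Genes of the cornified envelope, the protein shell of stratified epithelia, were higher in basal cells for 20 of 23 tested and in luminal cells for 2 (median 2.80). Involucrin, Ivl, was at 256, 197 and 178 FPKM in basal and 12.3, 3.00 and 2.62 FPKM in luminal libraries (log2 difference 5.17 ± 0.50 SE, adjusted p = 8.83e-05), and stratifin, Sfn, a 14-3-3 protein, at 1725, 1495 and 1504 and 96.3, 33.3 and 45.0 FPKM. Luminal replicate 1 was the highest luminal library for both and remained below all basal ones. The small proline-rich protein Sprr1a was abundant in both layers, at 4626 to 7189 FPKM in basal and 1589 to 3814 FPKM in luminal libraries, and the 2 luminal members were Klk8 (-2.04) and Sprr2f (-3.01), chosen after their values were seen. Markers of proximal luminal cells, the stem-like cells near the urethra, were basal for 9 of 18 tested and luminal for 3 (median 0.85). Lcn2 was at 961, 561 and 401 FPKM against 34.6, 6.15 and 3.20 FPKM and Ly6a, the Sca-1 antigen gene, at 833, 532 and 496 against 50.3, 9.51 and 9.06 FPKM. Without luminal replicate 1 the differences of Lcn2 and Ly6a went from 5.88 and 5.10 to 6.78 and 5.88, and without luminal replicate 3 that of Lcn2 to 5.24. Ly6a is also high in stromal libraries, at a mean of 1163 FPKM.

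In metabolism, more glycolysis genes were basal and more citrate cycle genes luminal. Of 34 glycolysis and hypoxia genes tested, 19 were basal and 9 luminal (median 0.78). The glucose transporter Slc2a1, chosen after its values were seen, was at 452 to 586 FPKM in basal and 52.3 to 118 FPKM in luminal libraries, hexokinase 2 differed by 4.14, and the hypoxia-induced Adm, Egln3 and Car9 by 4.34, 4.04 and 3.81. Ldha did not pass (adjusted p = 0.102). Of 41 citrate cycle and mitochondrial genes, 24 were luminal and 4 basal (median -0.59, or -0.36 and -0.52 under the other scalings). Luminal prostate cells export citrate, and the cytosolic enzymes Idh1, Got1 and Mdh1 were luminal (-2.53, -2.43 and -2.27), as was Pcx, which makes oxaloacetate from pyruvate (-1.85). Mdh1 was at 207, 274 and 208 FPKM in luminal and 44.2, 44.0 and 51.5 FPKM in basal libraries.

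Zinc and polyamines, both concentrated in prostatic fluid, gave a mixed list of 23 tested genes with 10 basal and 8 luminal (median 0.25). Zinc transporters took opposite sides. Slc30a2, which loads zinc into secretory vesicles, was at 45.0, 67.5 and 49.0 FPKM in luminal and 0.714, 1.37 and 1.09 FPKM in basal libraries, Slc39a8 differed by -4.27 and the metallothionein Mt3 by -4.89, while Slc30a4 was basal (2.26). Mt1 was abundant in both layers and did not pass (adjusted p = 0.221). Ornithine decarboxylase, the entry enzyme of polyamine synthesis, was basal: Odc1 was at 881, 580.3 and 664 FPKM in the basal libraries and at 74.3, 69.2 and 53.9 FPKM in the luminal libraries (log2 difference 3.40 ± 0.20 SE, adjusted p = 3.76e-08). Spermine oxidase, Smox, was basal too (2.44). Of 36 glutathione and detoxification genes, 19 were basal and 9 luminal (median 1.15), with Ces1d (4.88), Mgst1 (4.31) and Aldh3a1 (4.16) basal and Gpx3 and Prdx6, given above, luminal.

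Immune genes also divided. Of 15 complement and innate defence genes tested, 9 were luminal and 5 basal (median -1.27). The complement proteases C1ra and C1rb differed by -6.14 and -6.65, C4b by -3.34 and the complement regulator Cd59a by -2.58. The polymeric immunoglobulin receptor, which carries IgA into secretions, was luminal, with Pigr at 90.2, 126 and 88.2 FPKM against 0.506, 2.05 and 1.02 FPKM (log2 difference -5.59 ± 0.26 SE, adjusted p = 7.92e-09). Of 22 antigen presentation genes, 14 were luminal and 1 basal (median -0.96): B2m was at 1344, 1266 and 1054 FPKM in luminal and 211, 233 and 250.4 FPKM in basal libraries. The class II genes Cd74 (-1.88) and H2-Ab1 (-2.03), markers of antigen-presenting cells, were luminal, as were C1qb (-1.62) and Lyz2 (-1.24). Of 6 tested macrophage markers, 4 were higher in luminal and 1 in basal libraries, and 1 did not pass. The 15 in the tables summed to 17.1 to 27.3 FPKM in basal and 25.2 to 31.7 FPKM in luminal libraries, with overlap. Their mean log2(FPKM + 1) was 0.551 to 0.871 in basal and 1.08 to 1.22 in luminal libraries. Of these 15, 11 were under 1 FPKM in every basal library, and a tested one of them could enter only through the luminal libraries. Of 31 chemokine, cytokine and interleukin genes, 16 were basal and 9 luminal (median 0.72), led by Lif (4.08), Csf3 (3.85) and Il33 (3.34), an alarmin of epithelial barriers. Of 24 interferon-induced genes, 13 were luminal and 3 basal (median -0.60).

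**Figure D4:**
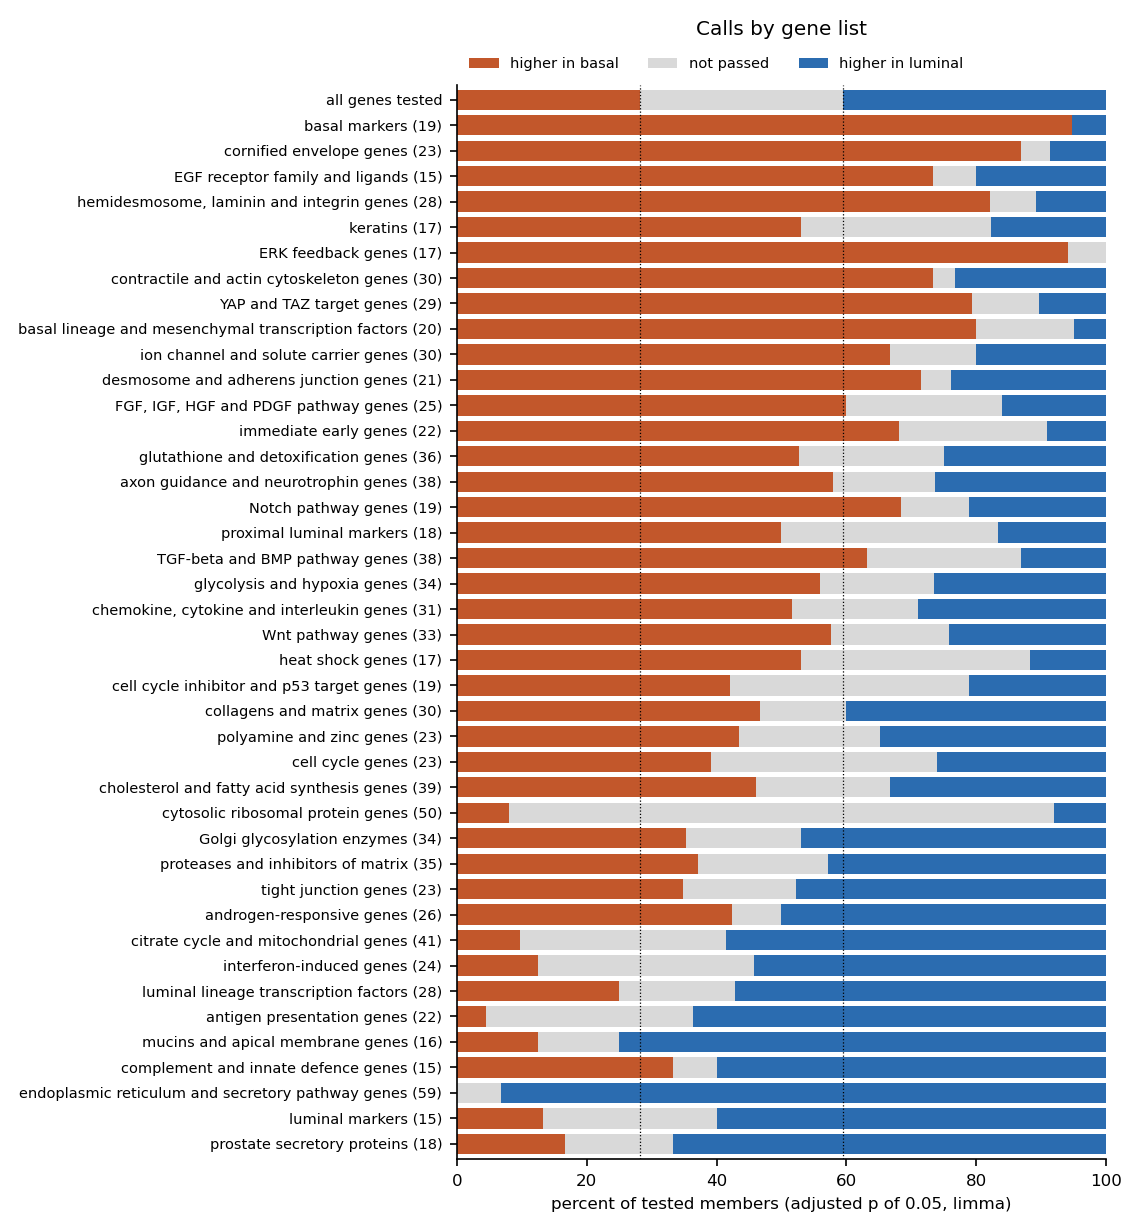
Share of tested members of each gene list with 15 or more tested genes that were higher in basal cells (left), higher in luminal cells (right) or did not pass (grey), ordered by median log2 difference, with list sizes in parentheses and the share of all tested genes in the top bar and dotted lines (28.2% basal, 40.5% luminal). The bar of the endoplasmic reticulum list is almost wholly luminal (55 of 59) and that of the ERK feedback list almost wholly basal (16 of 17).

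The tables also give FPKM per transcript, and many genes drew on different transcripts in each layer. Of 2487 transcripts tested in 1387 genes, 658 (26.5%) took another share of their gene by limma at an adjusted p of 0.05. In 225 genes a called transcript's mean share differed by at least 10 percentage points with groups that did not overlap. A gene whose other transcripts are all low can pass only because its own level differs, so the test was repeated on the 1963 transcripts of genes with 2 or more transcripts at the expression minimum, a choice made after seeing the data: 397 were called, in 213 genes. Cufflinks assigns reads to overlapping transcripts by a likelihood, and 168 of the 428 transcripts of these genes called in the first test are listed at exactly 0 or as the whole of their gene in every library of a layer, so the shares below are estimates.

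Tropomyosin 1 showed the change of start site most plainly. Its upstream start, with transcripts spanning chr9:67022593-67049213 (mm10), gave 1399, 1117 and 1199 FPKM in basal libraries and 74.4, 26.0 and 31.9 FPKM in luminal libraries. Its internal start is listed at 0 in all basal libraries and gave 93.9, 69.5 and 73.1 FPKM in luminal libraries, 55.8%, 72.8% and 69.6% of the gene. Upstream-start tropomyosin 1 is the long form typical of contractile cells. The groups did not overlap for either start, which for the internal start, listed at 0 in all basal libraries, the expression minimum fixed.

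Other genes used an additional start in luminal cells. Rnf128, a ubiquitin ligase gene on chrX:139563340-139673145, is listed at 0 from its upstream start in basal libraries and was at 47.3, 46.5 and 46.8 FPKM from it in luminal libraries, 51.2% to 57.6% of the gene. Tpd52, a vesicle trafficking gene on chr3:8929436-9004515, is listed at 0 from its downstream start in basal and was at 59.2, 82.5 and 65.3 FPKM in luminal libraries, while its upstream start gave 46.7 to 65.2 FPKM in basal and 54.1 to 55.3 FPKM in luminal libraries. Lima1, an actin-binding protein gene on chr15:99778468-99875456, is listed at 0 from its upstream start in basal and was at 28.8, 17.7 and 17.9 FPKM in luminal libraries. In each the additional start was absent from the basal estimates and clear in all 3 luminal ones.

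**Figure D5:**
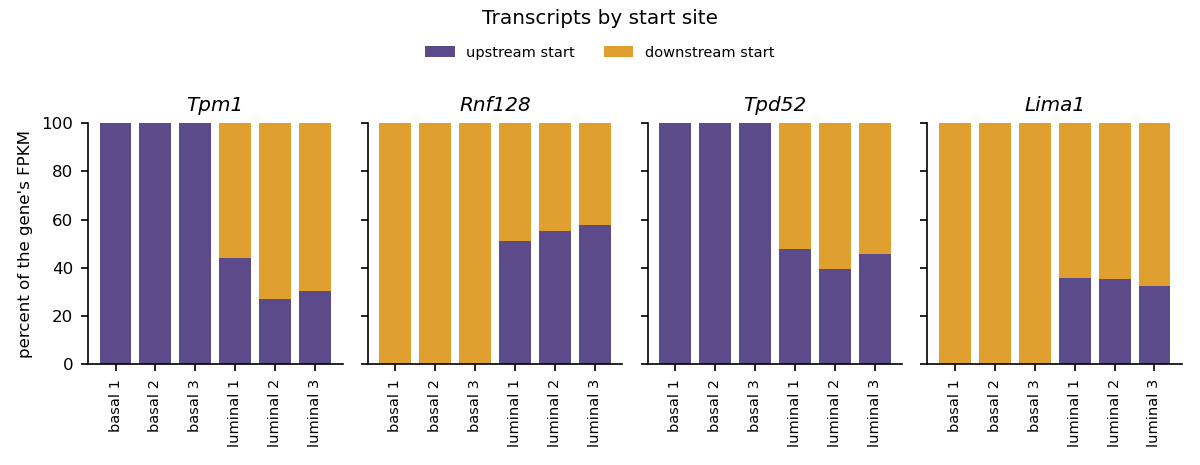
Percent of each gene's FPKM assigned to transcripts from its upstream and downstream start in each wild type library, for Tpm1, Rnf128, Tpd52 and Lima1. Basal libraries are assigned wholly to 1 start in each gene, while luminal libraries divide between both, with 55.8% to 72.8% from the downstream start of Tpm1.

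Trp63 has an upstream start for its full-length form and a downstream start for the N-terminally truncated form known from basal epithelia. All Trp63 signal was assigned to the downstream start, and the 3 transcripts of the upstream start are listed at 0 in all 6 libraries. Cd44, a hyaluronan receptor that is spliced into short and variant forms, was assigned to different transcripts: the 4408-base transcript, the shortest, is listed at 0 in basal libraries and took 61.8%, 79.7% and 100% of the gene in luminal libraries, and the 5284-base transcript took 51.3%, 61.1% and 57.5% in basal libraries against 12.5%, 20.3% and 0% in luminal libraries. The share of the 5284-base transcript lost its call with a pseudocount of 0.1 (adjusted p = 0.0723 by limma, in place of 0.00956). Cd44 was low in luminal cells, at 6.84 to 8.59 FPKM. Fgfr2 was not tested because the gene was under 5 FPKM in the luminal libraries. Its 4856-base transcript was at 69.9% to 73.2% of the gene in basal and 63.4% to 73.2% in luminal libraries.

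Very large differences in some genes rest on estimates of 0. Pltp, at 116, 128 and 111 FPKM in basal libraries, and Rpl26, at 106, 50.7 and 56.9 FPKM, are listed at 0 in all luminal libraries. Slirp, at 84.0, 109 and 55.9 FPKM in luminal libraries, is listed at 0 in all basal libraries. Each overlaps another gene, and Rpl26 is a ribosomal protein gene that every cell uses. Of called genes listed at 0 in a whole layer, 23 of 33 basal and 49 of 68 luminal ones overlap another annotated gene, and for these a fold change carries no meaning. Cytosolic ribosomal protein genes mostly did not pass (42 of 50), 4 higher in each layer and a median of -0.10, or 0.12 under the trimmed mean scaling.

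The share of the total taken by the most abundant genes depended on how many were counted. The top 100 genes held 35.2% ± 0.73 (SD, n = 3) of the FPKM of basal and 35.9% ± 0.63 (SD, n = 3) of luminal libraries (exact two-sided permutation test, p = 0.3, where 3 against 3 cannot go below 0.1). The top 500 held 60.1% to 61.3% in basal and 58.1% to 59.6% in luminal libraries, without overlap (p = 0.1 by the same exact test). The 10 most abundant basal genes were actins, keratins, metallothioneins, Sprr1a, Cldn4 and the lipid carrier Apoe, which was at 2842, 3543 and 3196 FPKM against 179, 147 and 172 FPKM in luminal libraries. The 10 most abundant luminal genes were Pbsn, Ren1, Prdx6, Hspa5, keratins 18 and 19, Mt1, Actg1, the ribosomal RNA precursor Rn45s and 9530002B09Rik, a gene without an assigned name.

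The basal and luminal libraries of toxin-treated Lgr5-DTR-eGFP mice gave the same sign for 890 of the 913 genes more than 2-fold higher in wild type basal cells and for 1576 of the 1582 more than 2-fold higher in wild type luminal cells. Over all called genes the sign was the same for 2611 of 2952 basal and 4144 of 4240 luminal ones, and the Lgr5-DTR groups did not overlap, in the same direction, for 1947 and 3594. The same counts over all tested genes were not made, so these have no background share to be read against. Genotype and toxin cannot be told apart in that comparison. The difference between layers itself differed between the genotypes for 546 of 10459 genes (5.22%), more positive in wild type for 407 (3.89%) and more negative for 139 (1.33%), by a limma interaction test, with 965 without Lgr5-DTR basal replicate 1 and 213 to 333 without any single one of Lgr5-DTR basal replicates 2 and 3 and luminal replicate 1 and of wild type basal and luminal replicates 2 and 3. More positive in wild type were 21 of 30 collagens and matrix genes, 7 of 22 immediate early genes, 4 of 29 YAP and TAZ target genes, 3 of 17 ERK feedback genes and 3 of 15 EGF receptor family and ligand genes, lists chosen after their values were seen. No gene of these lists was more negative in wild type by limma at that threshold, and 1 ERK feedback gene was at an unadjusted p under 0.05. Spry4 differed by 3.36 in wild type and 0.79 in Lgr5-DTR (adjusted p = 0.0063 by limma) and Cyr61 by 3.61 in wild type and 1.23 in Lgr5-DTR (adjusted p = 0.00536). Tmprss2 differed by -3.12 in wild type and -1.10 in Lgr5-DTR (adjusted p = 0.00489).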

How the data were processed

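FPKM per RefSeq transcript were deposited by the authors, 1 table per library, made with TopHat2 and Cufflinks on mm10 per the submitters' processing notes, which give no versions. The deposited coverage column, a mean read depth per transcript, was used with transcript lengths only to estimate depth, 6.63 to 7.73 gigabases per wild type epithelial library. Cufflinks splits reads among overlapping transcripts by a likelihood, and 58 of the 244 genes with values in the text overlap another annotated gene. FPKM were summed per gene, filtered at 1 FPKM in 3 of 6 libraries and compared as log2(FPKM + 1) in limma 3.58.1 (R 4.3.3, trend and robust) with Benjamini-Hochberg adjustment over all 10460 genes, and with limma's treat against a 2-fold change. The method was tested on simulated data. Transcript shares were tested for genes at 5 FPKM or more and transcripts at 1 FPKM or more. Promoters of 1 chromosome were not used. Tables were read with Python 3.11.15 and pandas 2.3.3.

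Named genes were the 15 largest differences per direction with a mean of 5 FPKM or more and non-overlapping groups, the 10 most abundant per layer, up to 8 called and 4 others per list, 9 chosen markers, and the transcripts and genotype differences with the 10 smallest p-values, and a few of these are not reported here. The 20 exceptions, chosen after their values were seen, were Acpp, Areg, Btc, Calr, Canx, Cd44, Dnajc3, Ereg, Foxa1, Hsp90b1, Klk8, Lrig3, Nrg2, Slc2a1, Sprr2f, Tbx3, Tead1, Tead3, Tead4 and Xbp1. Members and gene lists were chosen with earlier results of these data known.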

Additional observations from a re-analysis of the deposited data

Results flagged for a closer look

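For 46 genes, 36 named above and 10 with the smallest p-values, the difference between basal and luminal cells differed between wild type and toxin-treated Lgr5-DTR-eGFP mice by limma's interaction test at an adjusted p of 0.05. Values here are the wild type minus the Lgr5-DTR difference on the log2 scale. Of the 46, 28 passed in every alternative tried and none changed sign. What lies behind the differences was not tested.

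Among the 10 with the smallest p-values, the basal excess of the phosphodiesterase gene Pde4b was 3.33 in wild type and 1.30 in Lgr5-DTR (a difference of 2.03, adjusted p = 0.000215) and that of Zfp36, an immediate early RNA-binding protein, 2.83 in wild type and 0.91 in Lgr5-DTR (1.92). The luminal excess of Plac8 was -6.11 in wild type and -3.48 in Lgr5-DTR (-2.63). The other seven rest on estimates listed at 0 in a whole group and overlap other genes: Taf10 (6.98), Cox16 (3.20), Toporsos (-5.95), Emc9 (-3.88), Mettl3 (-3.56), Cmc1 (-3.31) and Tm7sf2 (-2.99).

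The difference was more positive in wild type for 3 of 17 ERK feedback, 3 of 15 EGF receptor family and ligand and 7 of 22 immediate early genes tested. Among those named above, the basal excess was larger in wild type for Spry4 (2.56), Errfi1 (1.72), Ier3 (1.67), Lrig1 (1.60), Fosl2 (1.42), Hbegf (1.11) and Junb (1.04). It was larger as well for the YAP target Cyr61 (2.38), the signalling genes Igfbp2 (2.52), Wnt11 (2.22), Ltbp4 (2.17), Smo (1.80) and Shh (1.34), the matrix genes Col18a1 (2.64) and Thbs1 (2.13), the metabolic and stress genes Mgst1 (2.04), Car9 (2.01), Ces1d (1.86), Odc1 (1.75) and Ndrg1 (1.495), the lipid carrier Apoe (1.995), Pltp (1.57, listed at 0 in wild type luminal libraries) and the sialyltransferase St3gal4 (1.36).

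The luminal excess was larger in wild type for Mmp7 (-3.19), Cldn3 (-2.55), Tmprss2 (-2.02), Slc39a8 (-1.74), Fut8 (-1.61) and Man1a (-0.96). It was smaller in wild type for the stromal collagens and matrix genes Col1a1 (2.87), Postn (2.70), Col1a2 (2.47) and Col3a1 (2.06), and for Nkd2 (2.59) and the protease Klk8 (1.99). Nid1 differed by 0.26 in wild type and -2.19 in Lgr5-DTR (2.45). When each of the 12 libraries was left out in turn, Junb, Shh, St3gal4 and Klk8 passed in 3 of the 12 fits, Thbs1 in 4, and Hbegf, Lrig1 and Man1a in 5.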

How the results depend on the processing

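No gene called between layers was called in the opposite direction in any alternative. Up to 697 of the called genes lost their call, and the 5 FPKM filter left 1996 of them untested. None of the 230 called genes with values in the text changed sign. The counts of genes higher in basal and luminal cells stayed within 1.5 times of 2952 and 4240. Without single libraries they were 2656 to 3026 and 3882 to 4157. Over all alternatives they were 2219 to 3723 and 3006 to 4478. Quantile scaling gave 3723 and 3613, with more basal than luminal genes. The counts past 2-fold ranged from 776 to 1027 and from 1359 to 1579 without single libraries, and fell to 512 and 813 with a pseudocount of 5. With no filter on low values the 4 counts were 3200, 4478, 751 and 1368, and with the processing set that the estimate status reveals (1 basal and 2 luminal libraries) as a covariate 2815, 4147, 874 and 1543. Of 230 called genes with values in the text, 226 kept their call throughout and 4 (Cldn4, Lgr5, Tead4 and Xbp1) lost it in an alternative given beside them. Of 14 that did not pass, 7 passed in an alternative, Notch1 in 8 of 16, Tagln in 4, Ldha in 2, and Atf4, Cldn7, Mt1 and Nid1 in 1.

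Signs reversed for genes that did not pass. With the trimmed mean scaling Dusp4 was at 0.11, Epcam at 0.11 and Krt18 at 0.0769, and with quantile scaling Dusp4 was at 0.29, Erbb2 at 0.0188 and Krt18 at 0.0502. Without single libraries Dusp4 ranged from -0.19 to 0.18, Epcam from -0.27 to 0.17, Fos from -0.51 to 0.0874, Krt18 from -0.30 to 0.0624 and Krt8 from -0.46 to 0.0687. Transcript shares gave 293 calls for genes at 20 FPKM, 397 for genes with 2 or more transcripts at the minimum, and 463 to 595 without single libraries. Genotype differences gave 213 to 965 without single libraries, 389 with a pseudocount of 0.1, 612 with quantile scaling and 777 with the processing set. The share of total FPKM was lower in basal cells for the top 100 genes by 0.78 percentage points (-0.78), for the top 10 genes (-1.09) and higher for the top 500 (1.84), and the cause was not tested.

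The title numbers 3, 5 and 6 occur in both layers. Deviations from the layer mean correlated at 0.225, -0.0359 and 0.190 for the same number, so the numbers were not taken to pair the libraries, and not every library correlated best with its own number. A fit with the title number as a replicate block gave 3083 and 4327 genes, 987 and 1674 past 2-fold and 503 transcript shares.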

Other observations

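Several gene groups outside the processes described so far also divided between the layers. Of 38 axon guidance genes tested, which epithelia use for contact between neighbouring cells, 22 were higher in basal and 10 in luminal cells (median 1.13). The ephrin receptor Ephb3 was at 21.1, 18.8 and 17.4 FPKM in basal and 1.05, 0.444 and 0.107 FPKM in luminal libraries, and the ligand Efnb1 and the semaphorin receptor Plxnb1 differed by 3.54 and 2.61. The class 4 semaphorins took both sides, with Sema4b basal (2.29) and Sema4a luminal (-2.55). Of 30 ion channels and solute carriers tested, 20 were basal and 6 luminal (median 1.32). The water and glycerol channel Aqp3 was at 396, 195 and 194 FPKM in basal and 13.2, 3.26 and 2.54 FPKM in luminal libraries, followed by the mechanically gated and calcium-linked channels Kcnn4 (4.31), Piezo1 (3.44) and Trpv4 (3.37). The glucose cotransporter Slc5a1 (-3.38), the peptide carrier Slc15a2 (-3.33) and carbonic anhydrase 2, Car2 (-2.79), were luminal.

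Cholesterol and fatty acid synthesis gave no single direction, with 18 of 39 tested genes basal and 13 luminal (median 0.10). Acss2 (-2.35), Mvk (-2.19) and Dhcr7 (-2.05), enzymes that feed or complete sterol synthesis, were luminal. Of 23 cell cycle genes, 9 were basal and 6 luminal (median 0.24): the D cyclins Ccnd2 (3.01) and Ccnd1 were basal, whereas the mitotic genes Birc5 (-1.84) and Ube2c (-1.46) were luminal at low levels, with Birc5 at 2.58 to 7.26 FPKM. Of 35 proteases and their inhibitors, 13 were basal and 15 luminal (median -0.37), among them the urokinase receptor Plaur (4.10) and the membrane-bound matrix metalloproteinase Mmp14 (3.17) in basal cells and tissue plasminogen activator, Plat (-3.40), in luminal cells. The 1 neuroendocrine marker tested, chromogranin A, was higher in luminal libraries, with Chga at 8.36, 4.17 and 10.7 FPKM there. Chga is listed at 0 in basal replicates 1 and 2 and at 0.453 FPKM in basal replicate 3. It could therefore enter the test only through the luminal libraries, which fixed its direction.

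The 5 genes left out of the tests were Tgm4, 9530053A07Rik, Amd1, Cmss1 and Filip1l. 9530053A07Rik, like Tgm4, is listed at 0 in all luminal libraries, and is at 65.2 to 149 FPKM in basal libraries, so the order of the layers cannot be read for either.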
